A study of Mus musculus with 5 samples.

Results

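The genes described here are 10 cytokine genes of regulatory T (Treg) cells, a CD4 T cell lineage defined by the factor Foxp3 that holds other immune cells in check. They were chosen by name and not by a rule on measured values, but with earlier results of these data known. Each had 1 entry in every file, out of 38130 entries. Of them, 7 are cytokines of conventional helper T cells (Ifng, Il4, Il5, Il13, Il17a, Il21 and Il2), and 3 are linked to the suppressive or repair functions of Treg cells (Il10, Ebi3 and Areg). Expression was measured by RNA sequencing in CD4+YFP+ cells sorted from C57BL/6 mice that carry Foxp3-Cre-YFP, a Cre and yellow fluorescent reporter driven by Foxp3, which all groups share. The library labelled KO came from malt1fl/fl mice at 21 days, in which Cre deletes Malt1 in Treg cells (1 library). The KI libraries came from mice at 6 weeks with 1 floxed and 1 C472A allele of Malt1 (2 libraries), which the labels call malt1fl/C472A and describe as a loss of protease activity in Treg cells. In KI, Cre removes the floxed allele in Treg cells, and the C472A allele is not limited to them. Wild-type (WT) mice gave 1 library at 21 days and 1 library at 6 weeks. The labels do not say whether animals were pooled or whether the KI libraries are of different mice, so any p-value covers the variation among these libraries alone, and that variation may be technical. Values are FPKM (fragments per transcript length and library size) divided by a scaling factor per library, called scaled FPKM, with the lower and upper bounds that Cufflinks gave.

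Helper T cells fall into types named after the cytokines they make. Type 1 cells make interferon gamma (Ifng), which activates macrophages, type 2 cells make IL-4, IL-5 and IL-13, which drive IgE, eosinophils and mucus, and type 17 cells make IL-17A. IL-21 is made by follicular and type 17 helper cells and helps B cells, and IL-2 is the T cell growth factor whose gene Foxp3 keeps low in Treg cells. IL-10 restrains antigen-presenting cells and T cells, Ebi3 is a chain shared by the heterodimers IL-35 and IL-27, and amphiregulin (Areg) is a ligand of the epidermal growth factor receptor that Treg cells use in tissue repair. Malt1 is a paracaspase that carries antigen receptor signals to NF-kB and cleaves RNases and RNA-binding proteins that destroy cytokine mRNAs.

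The level of the targeted gene in the library labelled KO lay between those of the WT libraries. Malt1 had 17.6 scaled FPKM in the library labelled KO and 55.9 and 37.8 in KI, against 27.0 in 21-day WT and 15.2 in 6-week WT. A gene-level sum need not fall when some exons are deleted, so this value checks neither the deletion nor the label. Estimated from the bounds, depth in fragments was 8.11 M (M for mega) in the library labelled KO, 26.6 and 26.2 M in KI, 30.5 M in 21-day WT and 7.22 M in 6-week WT. The library labelled KO was closest to 6-week WT (Pearson r = 0.939 across 11296 genes, which are not independent replicates) and KI to 21-day WT (r = 0.951 and 0.943), so each comparison within an age also crosses depth, and the other WT library is given beside it. The Treg marker Foxp3 had 30.5 scaled FPKM in the library labelled KO and 70.1 and 73.6 in KI, against 70.7 in 21-day WT and 39.5 in 6-week WT. Ikzf2, the Treg transcription factor Helios, had 15.4 in the library labelled KO and 62.6 and 104 in KI, against 68.0 and 36.3 in 21-day and 6-week WT. Ctla4 was also lowest in the library labelled KO. The other markers of the list of 7 were not. Cd4 was highest in the library labelled KO, at 213 against 165 and 197 in 21-day and 6-week WT. Tnfrsf18 lay above both WT libraries, at 102 against 99.5 and 90.0, and Il2ra and Cd3e lay between the WT libraries. In bulk RNA, fewer cells that express a gene and less RNA per cell cannot be told apart.

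The type 2 cytokine genes and Il21 were highest in the library labelled KO. Il4, which drives B cells to IgE and helper T cells to type 2, had 14.5 scaled FPKM there with bounds of 10.9 and 18.2, and 2.67 and 2.2 in KI. It had 0.675 in 21-day WT, with bounds of 0.0654 and 1.28, and 0.712 in 6-week WT, with bounds of 0 and 1.88. The library labelled KO stood apart from the other 4, and both KI values lay above both WT values, although the bounds of both overlapped those of 6-week WT and those of KI replicate 2 also overlapped those of 21-day WT.

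Il13, which acts on epithelium and mucus cells, had 3.33 scaled FPKM in the library labelled KO (bounds 2.19 and 4.48) and 0.428 and 0.0427 in KI, against 0.119 in 21-day WT and 0.325 in 6-week WT. Il5, the growth factor of eosinophils, had 0.926 in the library labelled KO (bounds 0.414 and 1.44) and 0.0857 and 0.0745 in KI, against 0.0247 in 21-day WT, and it was listed at 0 in 6-week WT. Il21 had 3.67 in the library labelled KO (bounds 2.57 and 4.77) and 0.790 in KI replicate 1, was listed at 0 in KI replicate 2, and had 0.264 in 21-day WT and 0.238 in 6-week WT. For these 3 genes the lower bound in the library labelled KO lay above the upper bound of every other library. The bounds of KI and WT overlapped, except for Il21 in KI replicate 2, listed at 0, against 21-day WT. Where these genes are listed at 0, both bounds are also 0, so any lower bound above 0 clears them.

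**Figure D1:**
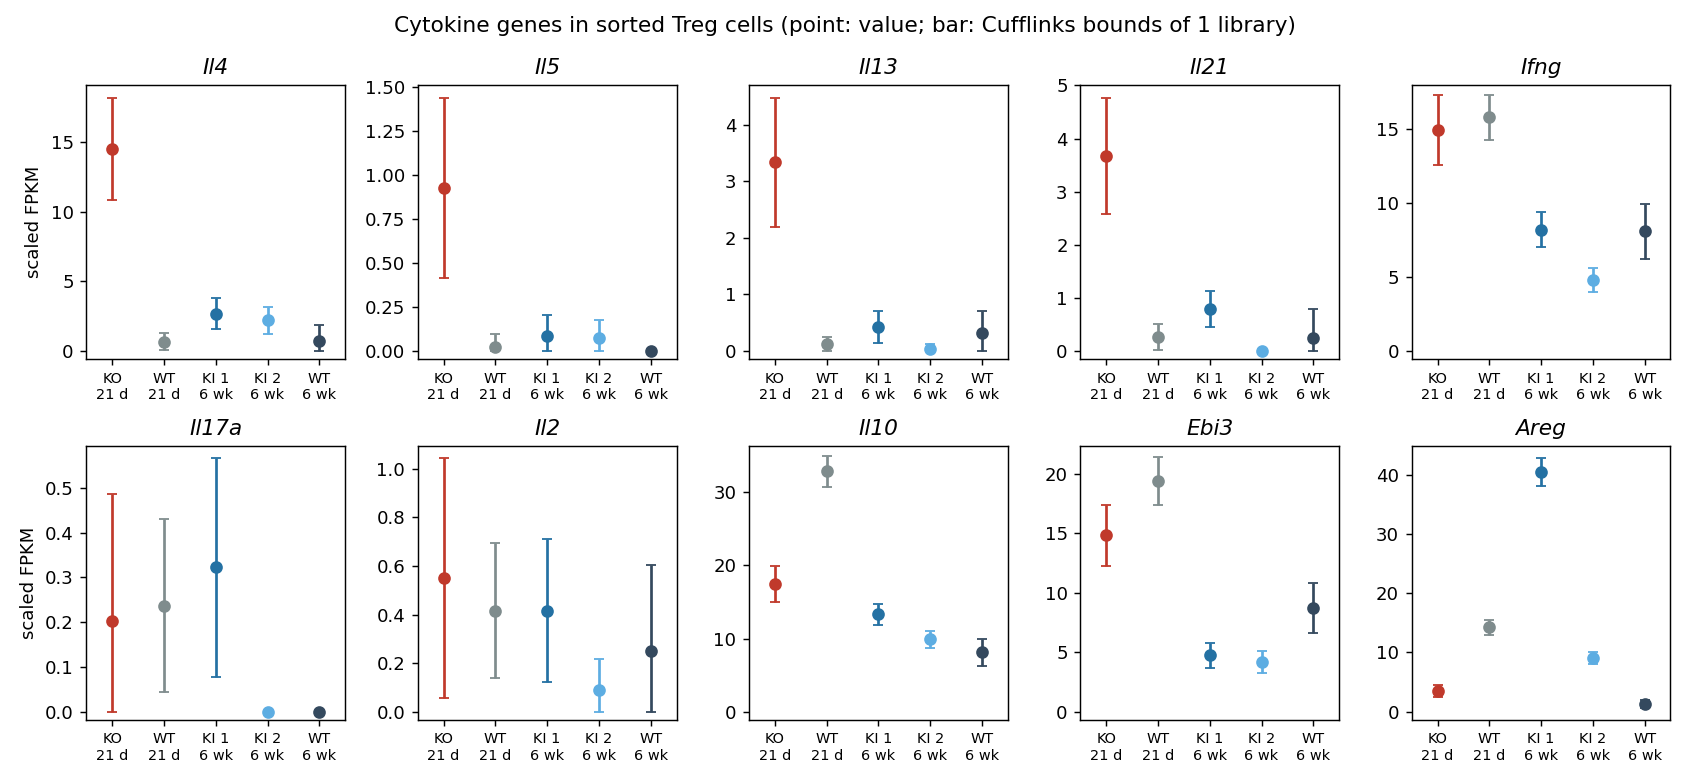
Scaled FPKM of the 10 cytokine genes, 1 panel per gene, with the 5 libraries on the x axis (KI 1 and KI 2 are the KI replicates). Points are values and bars the Cufflinks bounds, which cover counting and assignment error within 1 library; Il4 stands at 14.5 in the library labelled KO and at 2.67 or less elsewhere, and Areg is highest in KI replicate 1 at 40.4.

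These levels rest on few fragments. The bounds imply about 62.9 fragments of Il4 in the library labelled KO and 22.6 and 20.3 in KI, against 4.90 in 21-day WT and 1.48 in 6-week WT. For Il13 they imply 34.2 in the library labelled KO against 3 in each WT library, for Il21 44.6 against 4.54 and 0.731, and for Il5 13.1 against 0.493 in 21-day WT. The library labelled KO had the second lowest depth, so its higher implied counts came from fewer fragments in all than those of 21-day WT.

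Differences were taken between values of log2(scaled FPKM + 1), a scale that shrinks those of low genes. Il4 in the library labelled KO lay 3.21 above 21-day WT and 3.18 above 6-week WT. The bounds of the paired libraries span 2.38 to 4.17 and 2.04 to 4.26. Il13 lay 1.95 and 1.71 above, Il21 1.89 and 1.92, and Il5 0.91 and 0.95, short of 2-fold on this scale. With a pseudocount of 0.1 in place of 1, the differences from 21-day WT were 4.24 for Il4, 3.97 for Il13, 3.37 for Il21 and 3.04 for Il5, and with FPKM as deposited Il5 was at 1.01. With 1 library per group these differences have no replicate check. A fit of all 5 libraries in 4 groups, whose spread comes from the KI pair alone, gave Il4 an SE of 0.335 and a limma adjusted p = 0.255 against 21-day WT and 0.361 against 6-week WT, with 0 of 11296 genes called in either and 1171 and 429 at an unadjusted p under 0.05.

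In all, 3 of the 10 genes (Il4, Il13 and Il21) were past 2-fold above 21-day WT, where 6.13% of the 11296 tested genes were, and the same 3 were past 2-fold above both WT libraries, where 2.17% were. Of these only Il4 had the mean of 1 scaled FPKM over the 5 libraries that the tested genes share, and its mean over the other 4 libraries was 1.57. Among all 20156 genes above 0 in any library, which hold all 10, 4.32% were past 2-fold above 21-day WT and 1.78% above both WT libraries. Bounds above those of both WT libraries were seen for 4 of the 10 genes, with Il5 as the fourth, and for 4.94% of the 20156 genes. Past 2-fold above 6-week WT there were 4 of the 10, with Il10 as the fourth, beside 3.3% of tested genes. Among the tested genes, bounds above those of 21-day WT were seen for 24.5% and above those of both WT libraries for 7.53%. In the other direction Areg was past 2-fold below 21-day WT, beside 8.14% of tested genes, and the bounds of Il10 and Areg lay below those of 21-day WT, beside 27.2%. Of the 10 genes 0 were past 2-fold below 6-week WT or below both WT libraries, where 2.29% and 0.938% of tested genes were, and 0 had bounds below both, as 8.25% did.

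**Figure D2:**
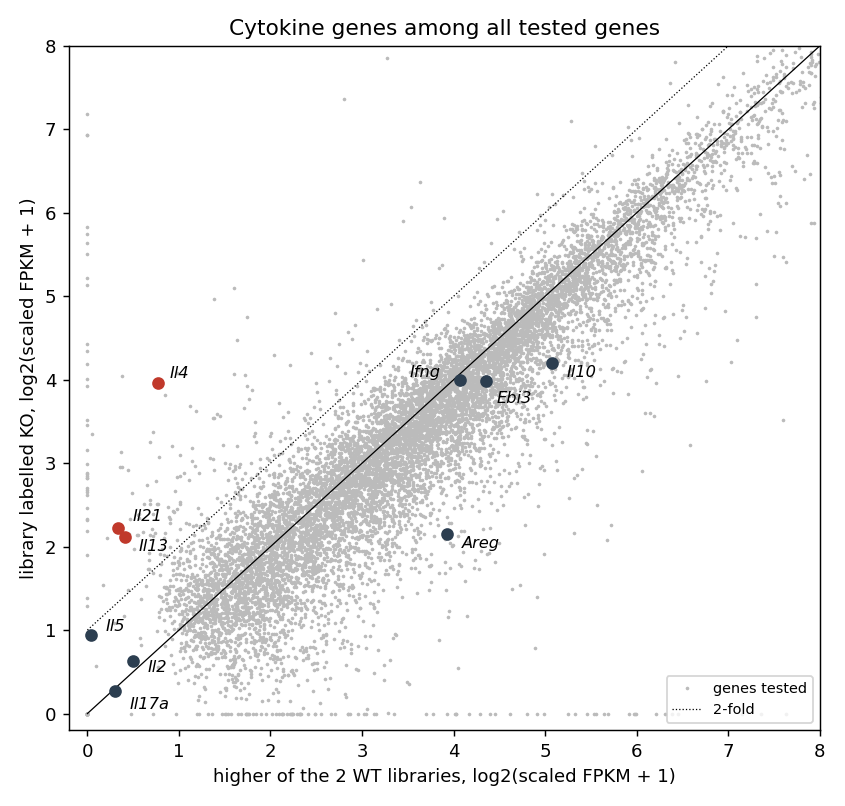
Each tested gene (grey) by its level in the higher of the 2 WT libraries (x) and in the library labelled KO (y), both as log2(scaled FPKM + 1), with axes ending at 8. The cytokine genes are labelled; Il4, Il13 and Il21 (red) lie above the dotted 2-fold line, and Areg lies furthest below the line of equality among the 10.

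The promoters of the genes past 2-fold above both WT libraries are shown because these genes were highest in the same library. They are RefSeq windows on GRCm38.p6, from 250 bases before to 50 after the annotated start, with every match to the NFAT core GGAAA or its reverse complement in capitals. NFAT is the calcium-regulated factor long known to act at cytokine promoters in activated T cells. Il4 has 2 annotated starts, and the window at the outer one is given.
Il4, minus strand, chr11:53618616-53618915: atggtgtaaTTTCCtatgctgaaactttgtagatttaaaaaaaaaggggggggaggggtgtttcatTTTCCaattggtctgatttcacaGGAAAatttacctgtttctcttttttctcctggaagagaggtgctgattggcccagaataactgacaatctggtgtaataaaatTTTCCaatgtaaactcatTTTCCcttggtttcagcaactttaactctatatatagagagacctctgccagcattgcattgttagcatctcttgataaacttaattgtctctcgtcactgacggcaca
Il13, minus strand, chr11:53634653-53634952: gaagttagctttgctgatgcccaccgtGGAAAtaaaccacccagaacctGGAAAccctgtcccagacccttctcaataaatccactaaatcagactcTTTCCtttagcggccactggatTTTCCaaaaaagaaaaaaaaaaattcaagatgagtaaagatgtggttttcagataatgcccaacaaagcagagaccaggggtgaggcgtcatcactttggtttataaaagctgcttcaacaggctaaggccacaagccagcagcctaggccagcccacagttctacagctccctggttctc
Il21, minus strand, chr3:37232587-37232886: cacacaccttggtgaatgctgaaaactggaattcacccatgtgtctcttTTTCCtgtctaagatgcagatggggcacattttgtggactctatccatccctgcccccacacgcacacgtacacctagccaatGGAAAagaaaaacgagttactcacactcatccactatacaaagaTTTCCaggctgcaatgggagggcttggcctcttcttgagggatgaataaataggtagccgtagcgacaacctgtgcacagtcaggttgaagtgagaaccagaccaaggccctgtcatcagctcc
The Il4 window holds 5 matches, that of Il13 4 and that of Il21 3. Of 32851 promoter windows of this length, 61.3% hold at least 1 match, 0.728% hold 5 or more, 2.65% hold 4 or more and 9.42% hold 3 or more. RefSeq windows matched 9 of the 10 genes, and the other windows hold 2 matches for Il5, Il2 and Ebi3, 1 for Ifng, Areg and the inner start of Il4, and 0 for Il17a. The AP-1 motif TGANTCA, searched on both strands, was found in the window of Il17a alone among the 10 windows of these genes and in 7.81% of all windows. The NF-kB motif, GGG and CC with any 5 bases between them, had 4 matches in the window of Ebi3, 1 each in those of Il17a, Il21, Il2 and Areg and 0 in the others. Of all windows, 50.8% hold at least 1 match and 6.65% hold 4 or more. Matches on either strand were counted and may overlap. The GATA motif AGATAA was in the window of Il13 alone among the 10, against 11.2% of all windows. The TATA box letters TATAAA, searched on both strands, were found 2 times in the window of Il13. These 2 matches overlap and lie in 1 stretch, tttataaa. The letters were found once each in the windows of Ifng, Il17a, Il2 and Areg. Of all windows, 13.6% hold at least 1 match and 2.36% hold 2 or more. A match describes letters, not a bound site.

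Il4, Il13 and Il5 lie near each other on mouse chromosome 11 (GRCm38), with Il4 (ENSMUSG00000000869) at 53602982 to 53618669, Il13 (ENSMUSG00000020383) at 53631324 to 53634702 and Il5 (ENSMUSG00000036117) at 53720794 to 53725106. Rad50, a DNA repair gene whose introns hold the control region of this locus, lies between Il13 and Il5, at 53649519 to 53707319. It had 6.90 scaled FPKM in the library labelled KO and 7.87 and 7.76 in KI, against 7.13 in 21-day WT and 5.67 in 6-week WT. Kif3a, a kinesin gene on the other side of Il4, had 2.1 in the library labelled KO and 1.19 and 1.22 in KI, against 1.44 and 1.41 in WT. Both differed between the library labelled KO and either WT library by at most 0.36 on the log2 scale. Irf1, a transcription factor gene beyond Il5, lay at -0.44 in the library labelled KO against 21-day WT and at 0.29 against 6-week WT, and Gm17334, which overlaps its span, lay at -0.11 and 1.15. In the library labelled KO, 1 of 8 tested genes beside the cytokine loci was past 2-fold above both WT libraries, against 2.17% of all. This was Sept8, a septin gene further out beyond Kif3a. It had 6.07 scaled FPKM in the library labelled KO and 4.24 and 4.23 in KI, against 2.05 in 21-day WT and 1.76 in 6-week WT.

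**Figure D3:**
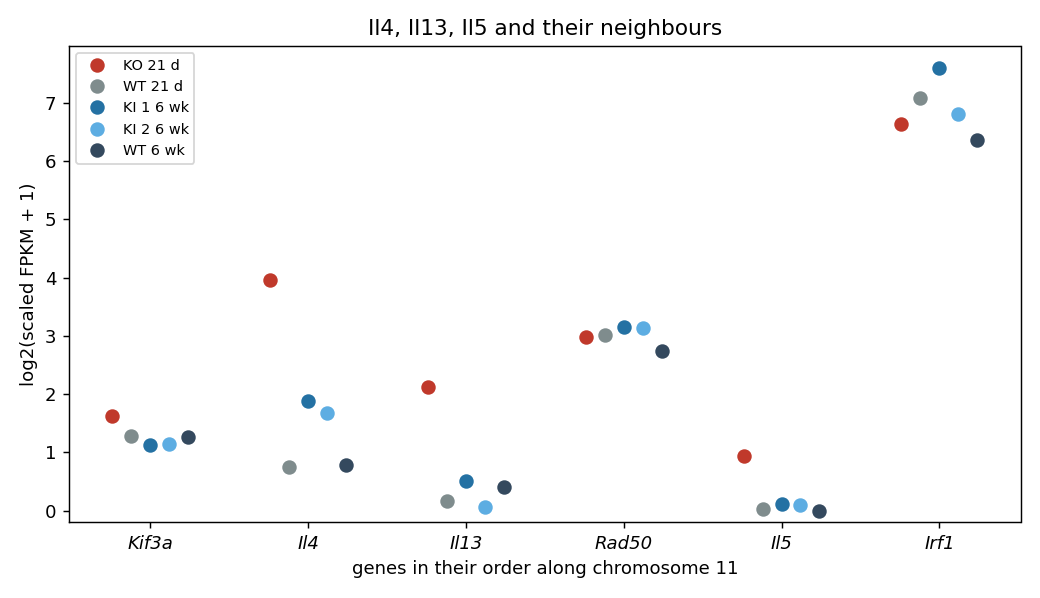
Levels as log2(scaled FPKM + 1) of 6 genes in their order along chromosome 11, with 1 point per library. In the library labelled KO (red) Il4, Il13 and Il5 stand above the other libraries, while Rad50 and Kif3a differ by at most 0.36 from either WT library and Irf1 lies between the 2 WT libraries.

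Il21 (ENSMUSG00000027718) lies on chromosome 3 at 37222759 to 37232618, and Il2 at 37120523 to 37125959. An antisense gene, Gm12534, overlaps exons of Il21 and had 1.65 scaled FPKM in the library labelled KO and 0.457 in KI replicate 1, was listed at 0 in KI replicate 2, and had 0.382 in 21-day WT and 0.385 in 6-week WT. The strand setting is not given in the sources used here, so reads of Il21 and Gm12534 cannot be told apart. Antisense genes also overlap exons of Il5 (Gm12214, at or near 0 in every library) and Ebi3 (Gm16712), and Gm49751 overlaps Ifng on the same strand.

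Of other cells that make these cytokines, mast cells, basophils and eosinophils left no more than 0.397 scaled FPKM in any library, summed over the 6 markers with an entry. The defining markers Fcer1a and Ms4a2, parts of the IgE receptor, were listed at 0 in all 5 libraries, and this sum was 0.0614 in the library labelled KO, against 0 in 21-day WT and 0.397 in 6-week WT. Of the 5 markers of cytotoxic lymphocytes, Gzmb, Nkg7, Gzmk and Prf1 were highest in the same library as the type 2 genes, and Ccl5 was not, at 50.02 in the library labelled KO against 50.2 in 21-day WT. The 5 summed to 187 scaled FPKM in the library labelled KO and 67.3 and 73.6 in KI. Their sum was 78.3 in 21-day WT and 76.5 in 6-week WT. Gzmb and Nkg7 were past 2-fold above both WT libraries in the library labelled KO, beside 2.17% of tested genes. Of the other tested cell type markers, Gzma and Il7r were too. Cd79a, Ms4a1, Ccr9 and Ikzf2 were past 2-fold below both, beside 0.938%. The 5 NK cell markers summed to 19.0 in the library labelled KO and 2.1 and 1.69 in KI, against 2.69 and 6.85 in 21-day and 6-week WT. Gzma, the granzyme A gene, made up 14.9 of the sum in the library labelled KO. Klrk1 and Klrb1c, below the filter, were also highest there. Klrk1 had 2.13, against 0.408 or less elsewhere, and Klrb1c had 1.82, against 0.8645 or less. Ncr1 was highest in 6-week WT, at 0.291, and Klra8, an NK cell receptor gene, was listed at 0 in all 3 mutant libraries. The 5 markers of innate lymphoid and NKT cells with an entry summed to 145 in the library labelled KO. Their sum was 133 and 79.3 in KI, 73.4 in 21-day WT and 66.4 in 6-week WT. Nearly all of each sum came from Il7r and Il1rl1, which T cells share. Il7r, Kit and Arg1 were highest in the library labelled KO, at 130.1, 2.497 and 0.6491. Elsewhere Il7r had 118.8 or less, Kit 2.315 or less and Arg1 0.1961 or less. The bounds of Kit in the library labelled KO overlapped those of every other library. Those of Arg1 overlapped those of 21-day WT. Il1rl1 was highest in KI replicate 2, at 25.55, and Zbtb16 in 6-week WT, at 0.06279. The 8 myeloid markers with an entry summed to 16.3 in the library labelled KO and 25.8 and 5.17 in KI, against 8.68 in 21-day WT and 98.6 in 6-week WT. The 5 B cell markers summed to 8.68 in the library labelled KO and 4.18 and 2.98 in KI, against 16.9 and 22.4 in 21-day and 6-week WT. Both sums were highest in 6-week WT, although of the B cell markers Cd22 was highest in the library labelled KO and Ms4a1 in 21-day WT. The 5 plasmacytoid dendritic cell markers summed to 7.31 in the library labelled KO and 1.195 and 1.63 in KI. Their sum was 9.765 in 21-day WT and 51.5 in 6-week WT, although Ccr9 was highest in 21-day WT, at 8.17 against 7.22. The CD8 T cell markers Cd8a and Cd8b1 summed to 10.1 in the library labelled KO and 6.08 and 5.79 in KI, against 8.95 in 21-day WT and 13.2 in 6-week WT. The part of any of these cells in the cytokine levels was not tested.

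Ifng (ENSMUSG00000055170, chromosome 10, 118441047 to 118445892) was higher in both libraries at 21 days than in the other 3. It had 14.9 scaled FPKM in the library labelled KO (bounds 12.6 and 17.3), against 15.8 in 21-day WT (bounds 14.3 and 17.3). In KI it had 8.20 and 4.80, or 6.5 ± 2.4 (SD, n = 2), against 8.09 in 6-week WT. The library labelled KO and 21-day WT overlapped, as did KI replicate 1 and 6-week WT, while KI replicate 2 lay below all others. In limma, KI lay at -0.32 against 6-week WT (SE 0.433, adjusted p = 0.786). Ifng in the library labelled KO lay at -0.08 against 21-day WT, and at 0.29 with FPKM as deposited, where the median over all genes was 0.35.

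Il17a (ENSMUSG00000025929, chromosome 1, 20730905 to 20734496) and Il2 (ENSMUSG00000027720) stayed near the limit of detection in every library. Il17a had 0.202 scaled FPKM in the library labelled KO and 0.322 in KI replicate 1, against 0.237 in 21-day WT, and it was listed at 0 in KI replicate 2 and in 6-week WT. Il2 had 0.551 in the library labelled KO and 0.415 and 0.0899 in KI, against 0.416 in 21-day WT and 0.25 in 6-week WT. The bounds imply 9 fragments or fewer for either gene in any library. For Il2 the bounds of each mutant library overlapped those of both WT libraries, so a difference was not detectable at this depth. For Il17a the same held for the library labelled KO, while the bounds of KI replicate 1 lay above the 0 of 6-week WT, and 21-day WT lay above the 0 of KI replicate 2 and of 6-week WT. Both bounds are 0 where Il17a is listed at 0, so any lower bound above 0 clears it, whatever the depth.

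Il10 (ENSMUSG00000016529, chromosome 1, 131019845 to 131024974) had the highest scaled FPKM of the 10 genes in 21-day WT and in the library labelled KO. In the latter its bounds overlapped those of Ifng, Il4 and Ebi3. It had 17.5 scaled FPKM in the library labelled KO (bounds 15 and 19.9), against 32.8 in 21-day WT (bounds 30.7 and 34.9). In KI it had 13.3 and 9.89, or 11.6 ± 2.44 (SD, n = 2), against 8.11 in 6-week WT (bounds 6.32 and 9.90). Thus the library labelled KO lay 0.87 lower than WT of its age on the log2 scale and 1.02 higher than the other WT library. KI lay 0.46 above 6-week WT (SE 0.330, limma adjusted p = 0.626) and 1.44 below 21-day WT (SE 0.305, adjusted p = 1). The direction of Il10 in either mutant thus depended on which WT library it was set against.

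Ebi3 (ENSMUSG00000003206, chromosome 17, 55952623 to 55957021) was the only 1 of the 10 genes for which both KI libraries lay below both WT libraries, beside 16.9% of tested genes. It had 4.75 and 4.18 scaled FPKM in KI, or 4.47 ± 0.405 (SD, n = 2), against 8.73 in 6-week WT (bounds 6.65 and 10.8) and 19.4 in 21-day WT (bounds 17.4 and 21.5). The upper bounds in KI, 5.79 and 5.10, lay below the lower bounds of both WT libraries, as for 3.03% of the 11296 tested genes. In limma, KI lay 0.83 below 6-week WT (SE 0.315, adjusted p = 0.482) and 1.90 below 21-day WT (SE 0.307, adjusted p = 1), so neither difference passed the threshold. The library labelled KO had 14.8, between the WT libraries, and overlapped 21-day WT.

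The chains that pair with Ebi3 were at or near 0. Il12a, which forms IL-35 with Ebi3, was listed at 0 in the library labelled KO, had 0.0371 in KI replicate 1, was listed at 0 in KI replicate 2 and in 21-day WT, and had 0.174 in 6-week WT. Il27, which forms IL-27 with Ebi3, was listed at 0 in all 3 mutant libraries and had 0.0429 in 21-day WT and 0.128 in 6-week WT.

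Areg (ENSMUSG00000029378, chromosome 5, 91139615 to 91148432) was highest in KI replicate 1 and lowest in 6-week WT. It had 3.46 scaled FPKM in the library labelled KO (bounds 2.44 and 4.48), against 14.2 in 21-day WT (bounds 13 and 15.5). In KI it had 40.4 and 9.04, or 24.7 ± 22.2 (SD, n = 2), against 1.37 in 6-week WT (bounds 0.683 and 2.05). No neighbours in the order of these 5 levels had overlapping bounds, and the KI replicates differed by more than either did from 21-day WT on the log2 scale. The 3 libraries of higher depth, both KI and 21-day WT, all lay above the other libraries, as for 23.6% of tested genes. In limma, KI lay 3.11 above 6-week WT (SE 1, adjusted p = 0.460) and 0.42 above 21-day WT (SE 0.987, adjusted p = 1). Its neighbours of the same ligand family, Ereg, Btc and Epgn, had at most 0.178 in any library, and the receptor Egfr at most 0.272.

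**Figure D4:**
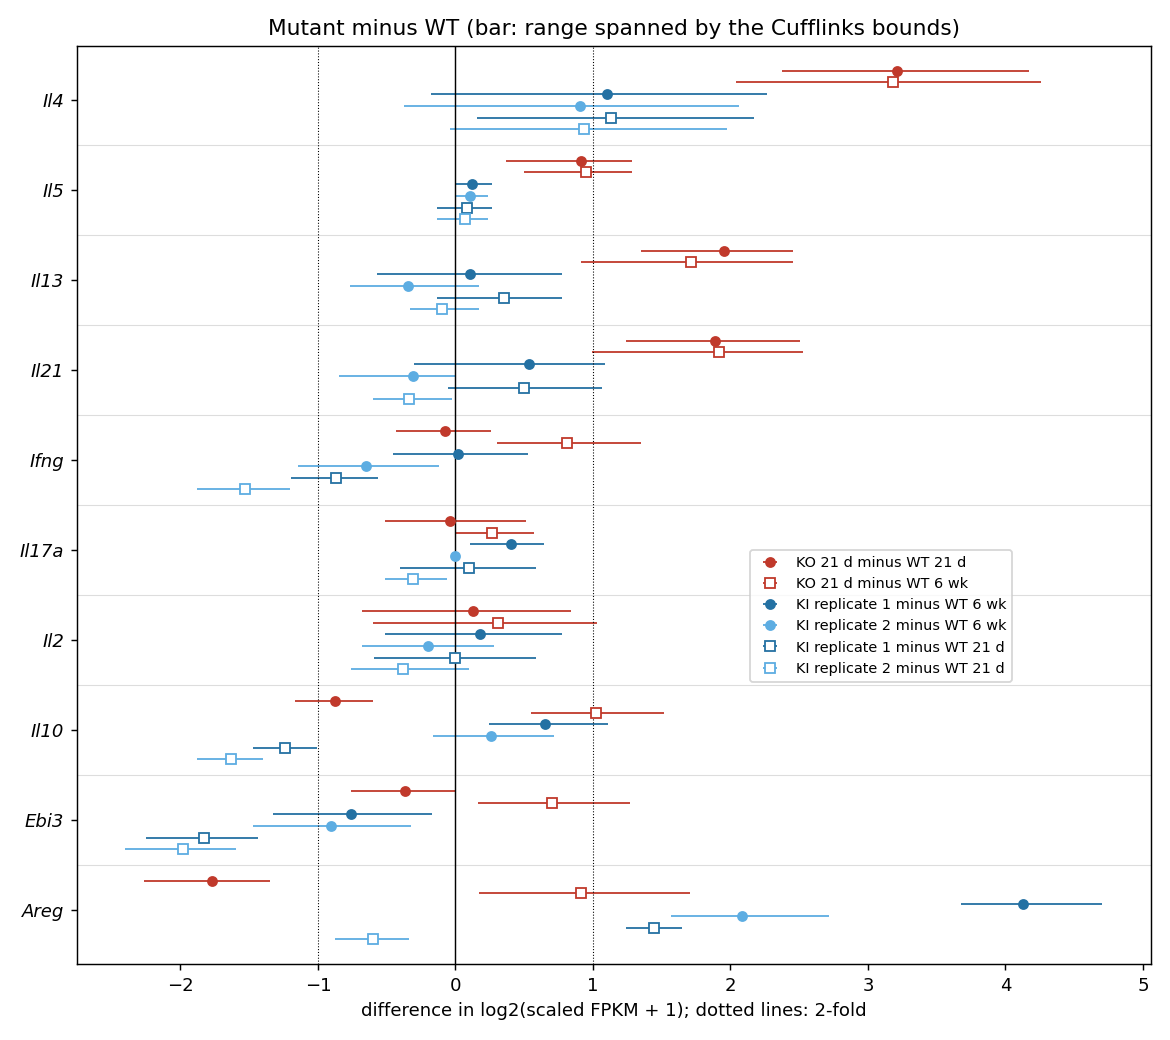
Mutant minus WT differences of the 10 genes in log2(scaled FPKM + 1), with filled circles for the WT library of the same age and open squares for the other WT library. Bars are the range that the bounds of the paired libraries span and dotted lines mark 2-fold; Il4, Il13 and Il21 lie right of 2-fold in the library labelled KO against both WT libraries, Ebi3 lies left of 0 in KI against both, and Il10 lies on different sides of 0 in either mutant for the 2 WT libraries.

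In KI against 6-week WT, limma called 0 of the 5 tested cytokine genes (Ifng, Il4, Il10, Ebi3 and Areg), beside 0% of all tested genes higher and 0.00885% lower. At an unadjusted p under 0.05 there were 2 of the 5, Il4 and Areg, beside 1211 of the 11296 tested genes (10.7%). Il4 lay 1.0 above 6-week WT on the log2 scale in KI (SE 0.267, limma adjusted p = 0.453). By size, only Areg was past 2-fold higher in both KI libraries, beside 3.01% of tested genes, and 0 of the 10 genes were lower, beside 2.8%. Against 21-day WT, Il10 and Ebi3 were past 2-fold lower in both KI libraries, beside 0.788% of tested genes, and 0 were higher, beside 0.398%. Both KI libraries lay above both WT libraries for Il4, beside 16.2% of tested genes, and for Il5, which is below the filter. However, 0 of the 10 genes had KI bounds above those of both WT libraries, as 3.23% did. Against both WT libraries 0 of the 10 were past 2-fold, beside 0.283% of tested genes higher and 0.345% lower.

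With all 3 mutant libraries set against both WT libraries, Il4 was higher in 3 of 3 mutant libraries than in either. This was so for 7.34% of tested genes. Il5 had the same order, but it is below the filter, and its bounds imply about 2.13 fragments in each KI library. For 0 of the 10 genes did all 3 mutant libraries lie below both WT libraries, beside 7.02%. In limma, Il4 lay 1.74 above WT there (SE 0.696, adjusted p = 1), and 0 of 11296 genes were called, with 297 at an unadjusted p under 0.05.

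Between the WT libraries, which differ in age and depth, 3 of the 10 genes were past 2-fold lower at 6 weeks, Il10 at -1.89, Ebi3 at -1.07 and Areg at -2.69, beside 5.18% of tested genes, and 0 were higher, beside 3.38%. Ifng lay at -0.89, and its bounds did not overlap. Il4, Il5, Il13, Il21 and Il2 had overlapping bounds in the WT libraries. Set by age across genotypes, Ifng, Il10 and Ebi3 were higher in both libraries at 21 days than in all 3 at 6 weeks. This order was seen for 3.08% of tested genes. Il2, below the filter, had the same order, although its bounds overlapped. The reverse order was seen for 0 of the 10 and for 2.9% of tested genes.

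Of the 13 tested receptor genes of these cytokines, in a list of 19, 1 was past 2-fold higher and 1 lower in the library labelled KO than in both WT libraries, beside 2.17% and 0.938% of all tested genes. Il12rb2, a chain of the IL-12 receptor, had 2.34 scaled FPKM in the library labelled KO and 1.48 and 0.527 in KI, against 0.593 in 21-day WT and 0.354 in 6-week WT. It reached the filter's mean of 1 scaled FPKM only with the library labelled KO included, so 2.17% is not a like share for it. Il6st, the signalling chain gp130, had 12.6 in the library labelled KO and 22.1 and 31.5 in KI, against 33.5 and 26.2 in 21-day and 6-week WT. The median log2 difference of the 13 was -0.22 and 0.00 in the library labelled KO against 21-day and 6-week WT, beside 0.02 and -0.01 over all tested genes. In KI 0 of the 13 were past 2-fold in both libraries against 6-week WT, beside 3.01% of tested genes higher and 2.8% lower.

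Among 23 tested transcription factors that govern helper cytokine genes, 0 were past 2-fold higher in the library labelled KO than in both WT libraries. Of all tested genes, 2.17% were. Gata3, the type 2 factor, named after its values were seen, had 59.2 scaled FPKM in the library labelled KO and 41.5 and 52.0 in KI, against 48.2 and 43.0 in 21-day and 6-week WT. Against 6-week WT, Nfil3, Irf4 and Bhlhe40 were past 2-fold higher in both KI libraries, beside 3.01% of tested genes. Against 21-day WT 0 were, beside 0.398%. The median of the 23 was -0.40 and 0.12 in the library labelled KO against 21-day and 6-week WT, and 0.26 and 0.26 in KI replicates 1 and 2 against 6-week WT.

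RNases and RNA-binding proteins that destroy or protect cytokine mRNAs stood lower against 1 WT library than against the other. Of 13 tested, 5 were past 2-fold lower in the library labelled KO than in 21-day WT and 0 than in 6-week WT. Of all tested genes, 8.14% and 2.29% were. Zc3h12a, the RNase Regnase-1 that Malt1 cleaves, named after its values were seen, had 20.3 in the library labelled KO and 64.8 and 14.3 in KI, against 45.3 in 21-day WT and 20.8 in 6-week WT. The median of the 13 was -0.67 and -0.12 in the library labelled KO against 21-day and 6-week WT.

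Of 13 tested cytokine response genes, 1 was past 2-fold above both WT libraries in the library labelled KO, beside 2.17% of all. This was Gbp2, a guanylate-binding protein induced by interferon gamma. It had 73.0 scaled FPKM in the library labelled KO and 39.7 and 50.9 in KI, against 35.6 in 21-day WT and 29.4 in 6-week WT. Gbp3 and Cxcl10 were past 2-fold higher in both KI libraries than 6-week WT, beside 3.01% of tested genes. Socs2, a feedback inhibitor of cytokine signals, was so against 21-day WT, beside 0.398%. Socs2 had 46.2 in the library labelled KO and 55.9 and 45.9 in KI, against 20.3 and 24.3 in 21-day and 6-week WT.

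The genes whose profile over the 5 libraries lay nearest to a cytokine gene were found by the Euclidean distance between centred log2 profiles. Nearest to Il4 were Ccl1, a chemokine, Gzmb, the granzyme B gene, and AC158672.3, at 0.516 to 0.582, where the median over 11295 genes was 2.68. Ccl1 had 21.3 scaled FPKM in the library labelled KO and 6.11 and 5.51 in KI, against 1.29 in 21-day WT and 2.1 in 6-week WT. Nearest to Areg were a 7SK entry, Bhlhe40, a transcription factor that T cells switch on after antigen receptor signals, and Fosl2, a subunit of AP-1, at 0.681 to 0.885 (median 3.26). Bhlhe40 had 80.9 in the library labelled KO and 446 and 102 in KI, against 177 in 21-day WT and 24.3 in 6-week WT. Nearest to Ebi3 were Tox2, an HMG-box factor, Ccl5, a chemokine, and Rpl30-ps10, a pseudogene (0.460 to 0.658, median 1.85). Tox2 had 6.94 in the library labelled KO and 1.78 and 1.46 in KI, against 11.5 in 21-day WT and 5.59 in 6-week WT. Nearest to Ifng were Spock2, Emb and Matn2 (0.296 to 0.560, median 1.43), and nearest to Il10 were Gm13611, Gm10343 and Gm10260 (0.546 to 0.585, median 1.62).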

How the data were processed

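Gene expression was measured by RNA sequencing of 5 libraries of sorted Treg cells. The submitters' processing notes name CASAVA, HISAT2 2.1.0, Cufflinks 2.2.1 and GRCm38 as what the authors used, without their settings. The authors deposited FPKM per gene with a lower and an upper bound, per the file headers. The bounds lie 2 standard errors from the value, so fragments were estimated as the squared ratio of value to standard error, and depth by a Theil-Sen slope over genes with 1 annotated GENCODE M21 transcript. These counts are approximate. Each library's FPKM were scaled by the median of its ratios to the geometric mean of all 5 libraries. This used the 9874 genes that reach FPKM of 1 everywhere. The factors were 1.15 for KO, 0.868 and 1.01 for KI, 0.876 for 21-day WT and 1.15 for 6-week WT. A test was run on log2(scaled FPKM + 1) where the mean scaled FPKM reached 1, which 11296 genes did. For KI against 6-week WT this was limma 3.58.1 in R 4.3.3 with a mean-variance trend, two-sided p-values, a threshold of 0.05 after Benjamini-Hochberg adjustment and 1 residual degree of freedom. This step was tested on simulated data. Comparisons with 1 library per group were counted by size, past 2-fold. Starts in the files are counted from 0 and printed from 1. Alternatives were another pseudocount, scaling, filter, WT library or set of samples, and each KI library left out. Those with all 3 mutant libraries, the fit of 4 groups and the counts against both WT libraries were chosen after seeing the data. The cytokine genes and lists were chosen with earlier results of these data known. List genes are named where past 2-fold against both WT libraries in the library labelled KO, or in both KI libraries, and other list genes and markers were named after their values were seen. In all, 3 list genes (Adgre1, Siglecf and Trdc) had no entry under that symbol. The result of 1 further list gene is not reported here.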

Additional observations from a re-analysis of the deposited data

Results flagged for a closer look

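Il10 and Areg lay on opposite sides of 0 in the 2 mutants when each was set against WT of its own age. Il10 lay at -0.87 on the log2 scale in the library labelled KO against 21-day WT, and at 0.65 and 0.26 in KI replicates 1 and 2 against 6-week WT. Areg lay at -1.77 in the library labelled KO, and at 4.13 and 2.09 in the KI replicates. The difference between the mutants was not tested. Each value rests on 1 WT library, and the WT libraries themselves differed by -1.89 for Il10 and -2.69 for Areg, 6 weeks minus 21 days.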

How the results depend on the processing

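The count of genes past 2-fold in the library labelled KO was 1613 against 21-day WT, 632 against 6-week WT, 351 against both and 0 by limma on 4 groups. With FPKM as deposited 75.4% of these calls were higher, with upper-quartile scaling 34.6%, against 43.0%. The count past 2-fold in both KI libraries was 656 against 6-week WT, 134 against 21-day WT, 71 against both, 1055 with a pseudocount of 0.1, and 1260 to 1492 with 1 KI library left out. With FPKM as deposited 28.7% of these were higher, against 51.8%, as the median over all genes moved to -0.26 (0.35 for the library labelled KO). Between the WT libraries the count was 967, and 1498 with a pseudocount of 0.1. Genes called by limma in KI against 6-week WT numbered 1, and 50 with a pseudocount of 0.1, 0 with no filter (2841 at an unadjusted p under 0.05), 2 with FPKM as deposited, 0 against 21-day WT (240 unadjusted) and 0 for 3 mutant against both WT libraries (297 unadjusted). Of the cytokine genes, Ifng in KI ranged from -0.65 to 0.017 with 1 KI library left out (0.017 without replicate 2). Il10 in KI turned to -1.44 against 21-day WT, -0.49 against both and -0.30 for all mutants. Against 6-week WT, Areg in the library labelled KO turned to 0.91, Il10 to 1.02, Ebi3 to 0.70, Ifng to 0.81 and Il17a to 0.265. The small differences of Il13, Il17a, Il21 and Il2 in KI also changed sign in some settings. Other scalings turned the sign of the small differences of Ifng and Il17a in the library labelled KO and of Il2 in KI, and of no other cytokine gene in these comparisons. The causes were not tested. No paired analysis was possible because the groups compared share fewer than 2 replicate numbers.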

Other observations

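Among 22 other cytokine genes, 10 were tested. Lif and Penk were past 2-fold above both WT libraries in the library labelled KO, beside 2.17% of tested genes. Lif, a cytokine of the IL-6 family, had 5.77 scaled FPKM in the library labelled KO and 1.51 and 9.28 in KI, against 2.11 in 21-day WT and 1.84 in 6-week WT. Penk, which encodes the enkephalin precursor, had 61.9 in the library labelled KO and 32.7 and 17.2 in KI, against 29.8 and 26.9 in 21-day and 6-week WT. Below the filter, and named after their values were seen, Csf2 and Il3, growth factors of myeloid cells, were also highest in the library labelled KO. Csf2 had 2.15 there and 0.629 and 0.108 in KI, was listed at 0 in 21-day WT and had 0.287 in 6-week WT. Il3 had 0.729 in the library labelled KO and 0.182 in KI replicate 1, and was listed at 0 in KI replicate 2 and in both WT libraries. Tgfb1, which encodes a suppressive cytokine of Treg cells, had 79.0 in the library labelled KO and 76.9 and 79.8 in KI, against 70.6 in 21-day WT and 88.4 in 6-week WT.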
